A study of Mus musculus with 6 samples.

Results

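The 10 genes described here, Pdgfra, Pdgfrb, Thy1, Fap, Dcn, Lum, Fbn1, Postn, Vim and Acta2, are non-collagen transcripts by which fibroblasts and pancreatic stellate cells are commonly recognised. They were taken by gene name from a count table of 56953 genes. Fap was too weakly covered to be tested, so 9 of the 10 were among the 14738 genes that passed the filter on low counts.

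RNA was sequenced from primary acinar cells of the mouse pancreas, embedded in Matrigel and kept for 3 days in serum-containing Waymouth's medium with trypsin inhibitor and dexamethasone. WT 1 and WT 2 came from wild-type acini, DD 1 and DD 2 from untreated DKK3 knockout acini, and DD + rDKK3 1 and DD + rDKK3 2 from DKK3 knockout acini that received soluble recombinant DKK3 (rDKK3). DKK3 is a secreted glycoprotein, and the knockout allele, in which exon 2 is replaced, is ubiquitous, so any stromal cell in a DD culture lacks the secreted protein as well. The labelled ages were 10 and 11 weeks in WT, 12 and 13 weeks in DD, and 14 and 15 weeks in DD + rDKK3, rising by 1 week from sample to sample in the order of deposit, and whether they are the true ages could not be checked. If they are, age and group cannot be told apart. WT 2 is labelled female, where the other 5 libraries are labelled male. No label names the animal of a culture. The labelled ages differ within each group, and the labelled sex differs within WT. If these labels are right, the cultures of a group came from separate animals, but this could not be checked. The p-values below weigh a group difference against the spread between these samples, estimated with information shared across genes. That spread may be technical.

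Fibroblasts lay down and remodel the extracellular matrix of connective tissue. Pancreatic stellate cells are the resident fibroblast-like cells that lie around acini and store retinoids when quiescent, and on injury they proliferate, secrete matrix and acquire a contractile actin network. PDGF ligands bind PDGFR-alpha and PDGFR-beta on such cells and drive their growth and migration, whereas acinar cells are specialised for digestive enzymes and are not known as a major source of decorin, lumican or fibrillin. Marker levels in an acinar preparation are therefore commonly read as a measure of the stroma carried along with the acini.

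Library totals ranged from 12018473 to 19750401 counts. The acinar label held in every library, with carboxypeptidase Cpa1 between 9732 and 16580 CPM (counts scaled to library depth), whereas Dkk3 itself had only 1 to 11 counts per library, WT included, and did not check the genotype labels. The 10 markers together made up between 0.00304% of all counts in WT 2 (exact 95% binomial interval 0.00276% to 0.00334%) and 0.0268% in DD + rDKK3 2 (0.026% to 0.0275%). All intervals here cover counting error only.

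The stromal markers were low in WT 1, WT 2, DD 1 and DD + rDKK3 1 and several-fold higher in DD 2 and DD + rDKK3 2, the 2 knockout libraries whose titles share the name DD2. Their summed level was 53.98 CPM in WT 1, 30.73 CPM in WT 2, 40.28 CPM in DD 1, 241.6 CPM in DD 2, 61.63 CPM in DD + rDKK3 1 and 255.8 CPM in DD + rDKK3 2. Between DD 1 and DD 2, which carry the same genotype and no treatment, the sum thus differed 6-fold. The group means were 42.36 ± 16.4 CPM in WT, 140.9 ± 142 CPM in DD and 158.7 ± 137 CPM in DD + rDKK3 (mean ± SD, n = 2 each), and the SD in both knockout groups was close to the mean. In bulk RNA, fewer cells of a type and less RNA per cell cannot be told apart.

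**Figure D1:**
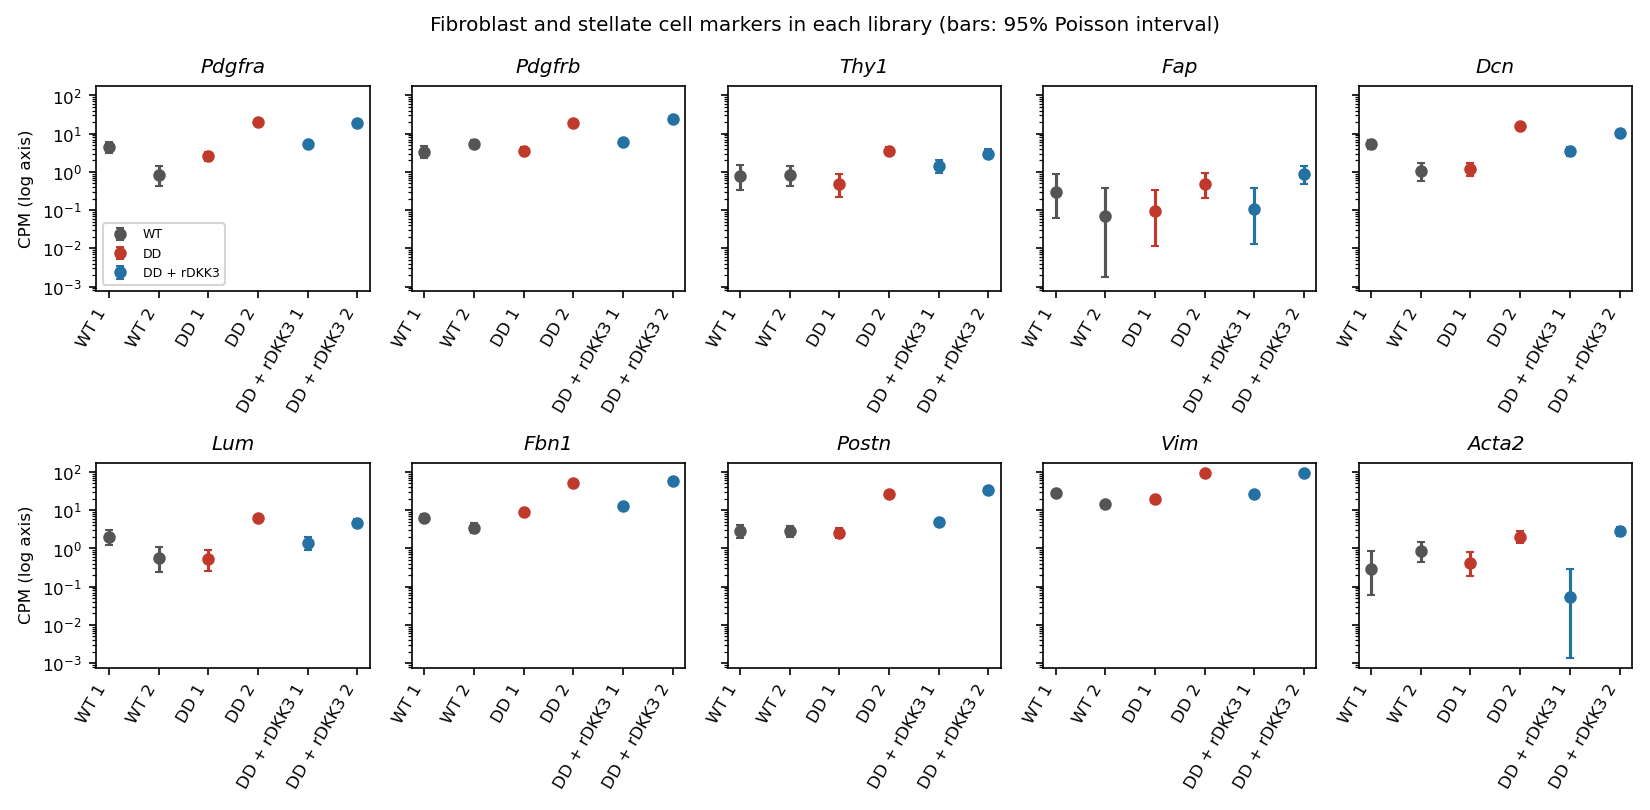
Level of each of the 10 markers in each of the 6 libraries, in CPM on a log axis shared by all panels, with 95% Poisson intervals as bars and colours for the 3 groups. DD 2 and DD + rDKK3 2 hold the 2 highest values of each of the 10 markers, from 96.4 CPM for Vim in DD 2 down to 0.47 CPM for Fap in DD 2.

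The PDGF receptors were represented by Pdgfra, which marks most tissue fibroblasts, and Pdgfrb, which marks pericytes, stellate cells and fibroblasts. Pdgfra (ENSMUSG00000029231, chr5:75312953-75358876, GRCm39, plus strand) stood at 4.42 CPM in WT 1, 0.842 CPM in WT 2, 2.55 CPM in DD 1, 19.9 CPM in DD 2, 5.28 CPM in DD + rDKK3 1 and 19.6 CPM in DD + rDKK3 2. The value of DD 1 lay between those of WT 1 and WT 2, and both DD + rDKK3 libraries lay above both WT libraries. Pdgfrb (ENSMUSG00000024620, chr18:61178222-61218133, plus strand) stood at 3.34 CPM in WT 1, 5.47 CPM in WT 2, 3.64 CPM in DD 1, 19.6 CPM in DD 2, 6.02 CPM in DD + rDKK3 1 and 25.04 CPM in DD + rDKK3 2. The receptors were ordered differently in WT, where Pdgfra was 5.25-fold higher in WT 1 than in WT 2 (exact 95% interval 2.73 to 10.9) and Pdgfrb was 0.61 of its WT 2 level in WT 1 (0.395 to 0.923). In DD against WT the log2 fold change was 2.15 ± 1.1 (SE) for Pdgfra, with an adjusted p of 0.586 by edgeR's quasi-likelihood test with Benjamini-Hochberg adjustment, and 1.37 ± 0.86 for Pdgfrb, with an adjusted p of 0.606 by the same test. Neither difference was larger than the spread between replicates.

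The surface markers were Thy1, which encodes the GPI-anchored glycoprotein CD90, and Fap, which encodes a membrane serine protease of activated fibroblasts. Thy1 (ENSMUSG00000032011, chr9:43954681-43959876, plus strand) had 0.785 CPM in WT 1, 0.842 CPM in WT 2, 0.473 CPM in DD 1, 3.58 CPM in DD 2, 1.43 CPM in DD + rDKK3 1 and 3.01 CPM in DD + rDKK3 2. DD 1 was the lowest of the 6 libraries although DD 2 was the highest, a 7.58-fold span within the group (3.85 to 16.6). Fap (ENSMUSG00000000392, chr2:62331287-62404419, minus strand) had 3 counts in WT 1, 1 in WT 2, 2 in DD 1, 8 in DD 2, 2 in DD + rDKK3 1 and 16 in DD + rDKK3 2. It reached the 10 counts that the filter asks of a library of median size only in DD + rDKK3 2, where its level was 0.86 CPM. Its 8.15-fold ratio of DD + rDKK3 2 to DD + rDKK3 1 had an interval of 1.92 to 73.0, and that of DD 2 to DD 1 was 4.97-fold with an interval of 0.991 to 48.0, so at this depth no difference in Fap between the DD libraries was detectable.

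Decorin and lumican, the small leucine-rich proteoglycans encoded by Dcn and Lum, bind and space collagen fibrils. Dcn (ENSMUSG00000019929, chr10:97315471-97354005, plus strand) had 5.3 CPM in WT 1, 1.05 CPM in WT 2, 1.18 CPM in DD 1, 16.3 CPM in DD 2, 3.43 CPM in DD + rDKK3 1 and 10.6 CPM in DD + rDKK3 2. Lum (ENSMUSG00000036446, chr10:97400990-97408565, plus strand), its neighbour on chromosome 10, had 1.96 CPM in WT 1, 0.561 CPM in WT 2, 0.52 CPM in DD 1, 6.11 CPM in DD 2, 1.37 CPM in DD + rDKK3 1 and 4.73 CPM in DD + rDKK3 2. Within DD these genes spanned the widest range of the 10 markers, 13.8-fold for Dcn (9.16 to 21.7) and 11.7-fold for Lum (6.3 to 24.2). They also differed within WT, where WT 1 exceeded WT 2 by 5.04-fold for Dcn (2.8 to 9.61) and 3.5-fold for Lum (1.48 to 9.18). Their groups overlapped in all 3 contrasts. In DD against WT the log2 fold changes were 1.5 ± 1.16 (SE) for Dcn and 1.42 ± 1.12 for Lum, with edgeR adjusted p-values of 0.639 and 0.644.

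Fibrillin-1, encoded by Fbn1 (ENSMUSG00000027204, chr2:125142514-125349913, minus strand), forms the microfibrils that scaffold elastin, and periostin, encoded by Postn (ENSMUSG00000027750, chr3:54268530-54298458, plus strand), is a matricellular protein made by activated fibroblasts. Fbn1 measured 6.28 CPM in WT 1, 3.51 CPM in WT 2, 8.75 CPM in DD 1, 51.3 CPM in DD 2, 12.9 CPM in DD + rDKK3 1 and 59.7 CPM in DD + rDKK3 2. It was the single marker whose knockout libraries all lay above both WT libraries, in DD and in DD + rDKK3. Postn measured 2.85 CPM in WT 1, 2.81 CPM in WT 2, 2.55 CPM in DD 1, 25.95 CPM in DD 2, 4.91 CPM in DD + rDKK3 1 and 33.5 CPM in DD + rDKK3 2. The WT libraries and DD 1 agreed closely for Postn, and DD 2 was 10.2-fold above DD 1 (7.65 to 13.7). In DD against WT, Fbn1 had a log2 fold change of 2.64 ± 0.97 (SE), with an unadjusted p of 0.0272 and an adjusted p of 0.586 by edgeR's quasi-likelihood test. Postn had a log2 fold change of 2.32 ± 1.16 and an adjusted p of 0.586 in that contrast by edgeR.

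The cytoskeletal markers were Vim, encoding the intermediate filament vimentin of mesenchymal, endothelial and blood cells, and Acta2, encoding the alpha-smooth muscle actin of myofibroblasts and vessel walls. Vim (ENSMUSG00000026728, chr2:13578738-13587637, plus strand) had 28.5 CPM in WT 1, 14.7 CPM in WT 2, 20.1 CPM in DD 1, 96.4 CPM in DD 2, 26.2 CPM in DD + rDKK3 1 and 95.95 CPM in DD + rDKK3 2. DD 2 and DD + rDKK3 2 were level with each other (ratio 0.996, 0.931 to 1.07), and DD 1 and DD + rDKK3 1 lay within the range of the WT libraries. Acta2 (ENSMUSG00000035783, chr19:34218490-34232990, minus strand) was rare, at 3 counts in WT 1, 12 in WT 2, 9 in DD 1, 34 in DD 2, 1 in DD + rDKK3 1 and 52 in DD + rDKK3 2, which is 0.294, 0.842, 0.426, 2, 0.0528 and 2.79 CPM in that order. Acta2 was past the filter's cutoff only in WT 2, DD 2 and DD + rDKK3 2, so its place among the tested genes depended on the libraries in which it was high. With 1 count in DD + rDKK3 1, its 52.9-fold ratio within that group had an interval of 9.09 to 2130. In DD against WT, Vim had a log2 fold change of 1.44 ± 0.8 (SE) and Acta2 one of 1.0 ± 1.36, with edgeR adjusted p-values of 0.59 and 0.786.

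Compared per kilobase of exon, the level in the mean of the 6 libraries was highest for Vim at 9.88 CPM per kb, followed by Fbn1 at 1.96, Postn at 1.38, Pdgfrb at 1.3, Pdgfra at 0.711, Dcn at 0.484, Lum at 0.396, Thy1 at 0.376, Acta2 at 0.331 and Fap at 0.0537 CPM per kb. Vim was first in every library, from 3.1 CPM per kb in WT 2 to 20.3 CPM per kb in DD 2. The order below it was not fixed, since Dcn stood at 0.407 CPM per kb in WT 1, above Postn at 0.325, while in DD 1 Dcn stood at 0.0907 CPM per kb, below Postn at 0.292. Among neighbours in this order, Vim stayed above Fbn1 and Pdgfrb above Pdgfra in 6 of 6 libraries, while the other 7 neighbouring pairs switched places in at least 1 library, Postn standing above Pdgfrb in only 2 of 6. The share of the summed counts taken by Vim was 52.7% in WT 1 and 37.5% in DD + rDKK3 2, and the share of Postn was 5.27% in WT 1 and 13.1% in DD + rDKK3 2. The markers thus did not scale by 1 common factor from library to library.

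Because the markers were high in the same libraries, the 250 bases upstream of their canonical start sites (GENCODE M39, GRCm39) were searched on both strands for the AP-1 motif TGANTCA, the TEAD motif GGAATG, the CArG box of serum response factor and the TATA box TATAAA. The AP-1 motif was in 0 of the 10 marker windows and in 6.17% of the windows of 21770 protein-coding genes. TEAD motifs were in the windows of Dcn, Thy1 and Acta2 (3 of 10, against 12.1% of all windows), CArG boxes in those of Fbn1 and Thy1 (2 of 10, against 1.4%), and the TATA box in that of Fap (1 of 10, against 11.9%). The windows with a CArG box, and that of Acta2, a gene for which CArG boxes are well known, are printed 5′ to 3′ in the direction of transcription, with the CArG box and the TEAD motif in capitals. No motif overlapped another in them, and a match is a description of letters, not of a bound site. The Acta2 window held no match to the strict CArG pattern searched, and looser CArG forms and sites outside the 250 bases were not examined.
Fbn1 (chr2:125349914-125350163, minus strand, CArG box): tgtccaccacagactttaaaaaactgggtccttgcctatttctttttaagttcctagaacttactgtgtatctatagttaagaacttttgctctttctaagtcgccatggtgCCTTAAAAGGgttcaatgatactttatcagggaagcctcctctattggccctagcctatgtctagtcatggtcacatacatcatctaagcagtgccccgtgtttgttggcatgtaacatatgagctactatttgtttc
Thy1 (chr9:43954282-43954531, plus strand, TEAD motif then CArG box): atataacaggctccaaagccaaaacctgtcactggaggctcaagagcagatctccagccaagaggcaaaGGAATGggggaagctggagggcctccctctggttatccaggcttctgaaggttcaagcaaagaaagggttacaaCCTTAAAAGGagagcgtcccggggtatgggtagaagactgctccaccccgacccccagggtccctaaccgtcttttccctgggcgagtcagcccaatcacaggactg
Acta2 (chr19:34232991-34233240, minus strand, TEAD motif): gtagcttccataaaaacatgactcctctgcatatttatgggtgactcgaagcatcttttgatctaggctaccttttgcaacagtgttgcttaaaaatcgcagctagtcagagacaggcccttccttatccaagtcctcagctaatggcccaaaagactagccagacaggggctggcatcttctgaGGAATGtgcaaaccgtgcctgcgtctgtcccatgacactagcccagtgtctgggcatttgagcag
Counted back from the start site, the CArG box began at position -138 in Fbn1 and -107 in Thy1, and the TEAD motif at -181 in Thy1 and -65 in Acta2. Of the genes with a CArG box, DD 2 exceeded DD 1 by 5.87-fold for Fbn1 (5.0 to 6.91) and 7.58-fold for Thy1 (3.85 to 16.6), against a median of 6.72-fold over the 10 markers.

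The markers differed several-fold between libraries of the same knockout group. DD 2 was at least 2-fold above DD 1 for 9 of the 9 markers tested, compared with 6.91% of all tested genes, on the scale of log2 CPM with a prior count of 2. DD + rDKK3 2 was at least 2-fold above DD + rDKK3 1 for the same 9 of 9 markers, compared with 5.14% of all genes. In both counts Acta2 is among the 9 because of the libraries in which it was high, as given above. The ratio of DD 2 to DD 1 ran from 4.69 for Acta2 to 13.8 for Dcn, and the ratio of DD + rDKK3 2 to DD + rDKK3 1 from 2.11 for Thy1 to 52.9 for Acta2, with medians of 6.72 and 3.94 over the 10 markers. Between WT 1 and WT 2 the markers went in both directions, with 3 of 9 at least 2-fold higher in WT 1 (Pdgfra, Dcn and Lum) against 3.69% of all genes, and Pdgfrb higher in WT 2.

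**Figure D2:**
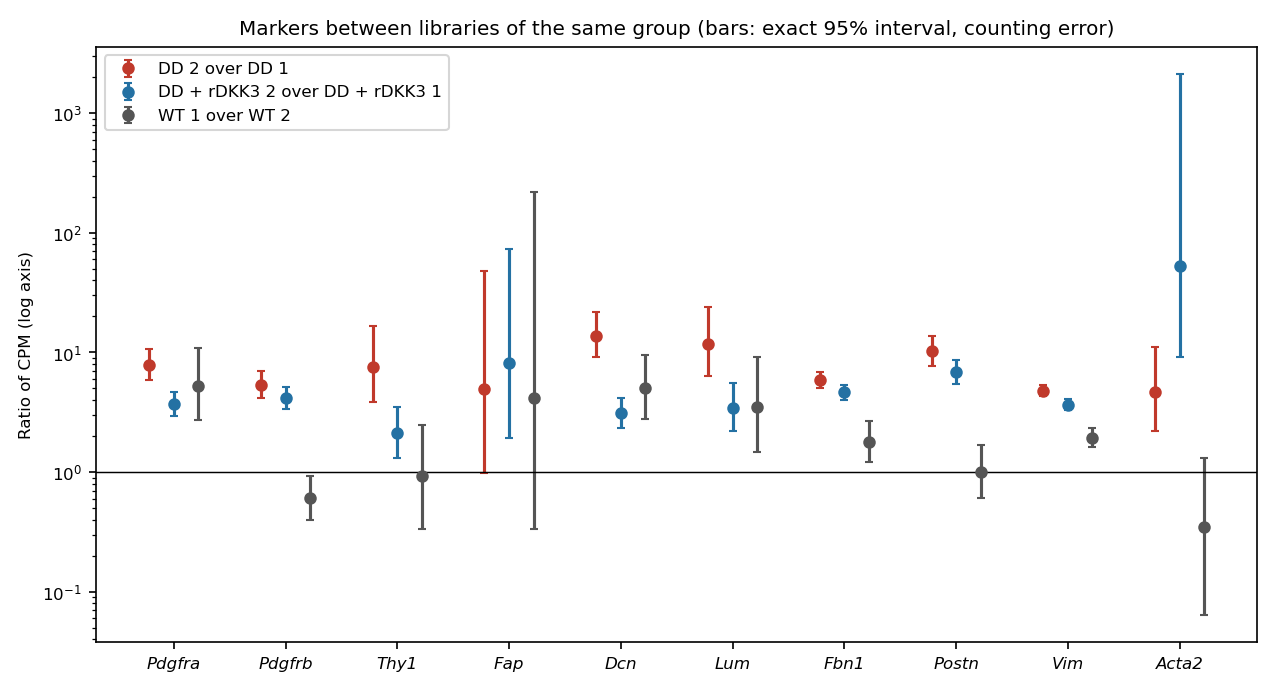
Ratio of CPM between the 2 libraries of each group for the 10 markers, on a log axis, with exact 95% intervals for counting error as bars and a line at 1. The ratios of DD 2 to DD 1 and of DD + rDKK3 2 to DD + rDKK3 1 lie above 1 for all 10 markers, while those of WT 1 to WT 2 run from 0.35 for Acta2 to 5.25 for Pdgfra.

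Set side by side by number, which names no shared animal, the libraries with and without rDKK3 were closer, with median ratios of 1.08 for number 2 and 1.78 for number 1. DD + rDKK3 2 was at least 2-fold above DD 2 for 0 of 9 markers, against 0.672% of all tested genes, and the ratios over the 10 markers ran from 0.648 for Dcn (0.537 to 0.781) to 1.83 for Fap (0.739 to 4.94). Pdgfrb at 1.28-fold (1.11 to 1.48), Fbn1 at 1.16-fold (1.06 to 1.27) and Postn at 1.29-fold (1.14 to 1.46) were higher in DD + rDKK3 2, and Dcn lower, beyond counting error. DD + rDKK3 1 was at least 2-fold above DD 1 for 4 of 9 markers, Pdgfra, Thy1, Dcn and Lum, against 1.58% of all genes. These 4 were higher in DD + rDKK3 1 beyond counting error. So were Vim at 1.3-fold (1.14 to 1.49), Fbn1 at 1.47-fold (1.21 to 1.79), Pdgfrb at 1.65-fold (1.23 to 2.24) and Postn at 1.92-fold (1.36 to 2.74). Acta2 went the other way, with 1 count in DD + rDKK3 1 and 9 counts in DD 1 (ratio 0.124, 0.00283 to 0.895). The share of all genes that differed beyond counting error was not counted for either number, so these intervals do not set the markers apart from other genes. Each of these ratios compares 2 libraries and not the treatment.

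Loss of DKK3 was assessed by DD against WT. All 9 tested markers had positive log2 fold changes, from 1.0 for Acta2 to 2.64 for Fbn1, with a median of 1.44 against a median of 0.02 over all 14738 genes. By edgeR, 0 of 9 markers were called at an adjusted p under 0.05, where 0.0407% of all genes were called, and at an unadjusted p under 0.05 the count was 1 of 9, Fbn1, against 8.26% of all genes. DESeq2 and limma-voom called 0 of 9 as well. Both DD libraries lay above both WT libraries for 1 of 9 markers, against 18.1% of all genes. The direction depended on DD 2, since without it the median log2 fold change was -0.29 and 2 of 9 markers remained positive, Pdgfra at 0.02 and Fbn1 at 0.86. Without WT 1 the median was 2.35, and without DD 1 it was 2.36.

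The effect of adding recombinant protein to knockout acini was assessed by DD + rDKK3 against DD. The log2 fold changes of the 9 markers lay between -0.31 for Dcn and 0.44 for Postn, with standard errors of 0.77 to 1.22, and their median was 0.15 against -0.0028 over all genes. By edgeR, 0 of 9 were called and 0% of all genes were called, and at an unadjusted p under 0.05 there were 0 of 9 markers against 1.98% of all genes. Limma-voom called 0 of 9, and DESeq2 called 0 of the 2, Fbn1 and Vim, to which it gave an adjusted p. For 0 of 9 markers did both treated libraries lie above both DD libraries, against 15.1% of all genes. Every edgeR adjusted p was 1, which with such standard errors does not show that the levels were alike. The sign followed the library left out, with a median log2 fold change of 2.21 without DD 2, -0.69 without DD 1, -1.24 without DD + rDKK3 2 and 0.79 without DD + rDKK3 1. Each of these fits leaves unequal numbers of the high number 2 libraries in the 2 groups. With the number as a block within the knockout libraries, the median was 0.38, with 8 of 9 positive and 0 called. Without both libraries of number 1 it was -0.03.

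Treated knockout acini were also set against wild type. In DD + rDKK3 against WT, which shares the WT libraries with the first contrast and the treated libraries with the second, all 9 log2 fold changes were positive, from 1.19 for Dcn to 2.91 for Fbn1, with a median of 1.51 against 0.02 over all genes. By edgeR, 0 of 9 markers were called, against 0.0475% of all genes, and 2 of 9, Fbn1 and Postn, had an unadjusted p under 0.05, against 15.3% of all genes. Limma-voom called 0 of 9, and DESeq2 again gave an adjusted p only to Fbn1 (0.141) and Vim (0.368). The lowest adjusted p-values by edgeR were 0.321 for Fbn1, at a log2 fold change of 2.91 ± 0.97 (SE), and 0.324 for Postn, at 2.76 ± 1.17. Both treated libraries lay above both WT libraries for 5 of 9 markers, Pdgfra, Pdgfrb, Thy1, Fbn1 and Postn, against 27.9% of all genes. Leaving out WT 1 gave a median of 2.44 and leaving out DD + rDKK3 1 a median of 2.23. Without DD + rDKK3 2 the median log2 fold change was 0.44, and Acta2, with its single count in DD + rDKK3 1, stood at -3.30.

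**Figure D3:**
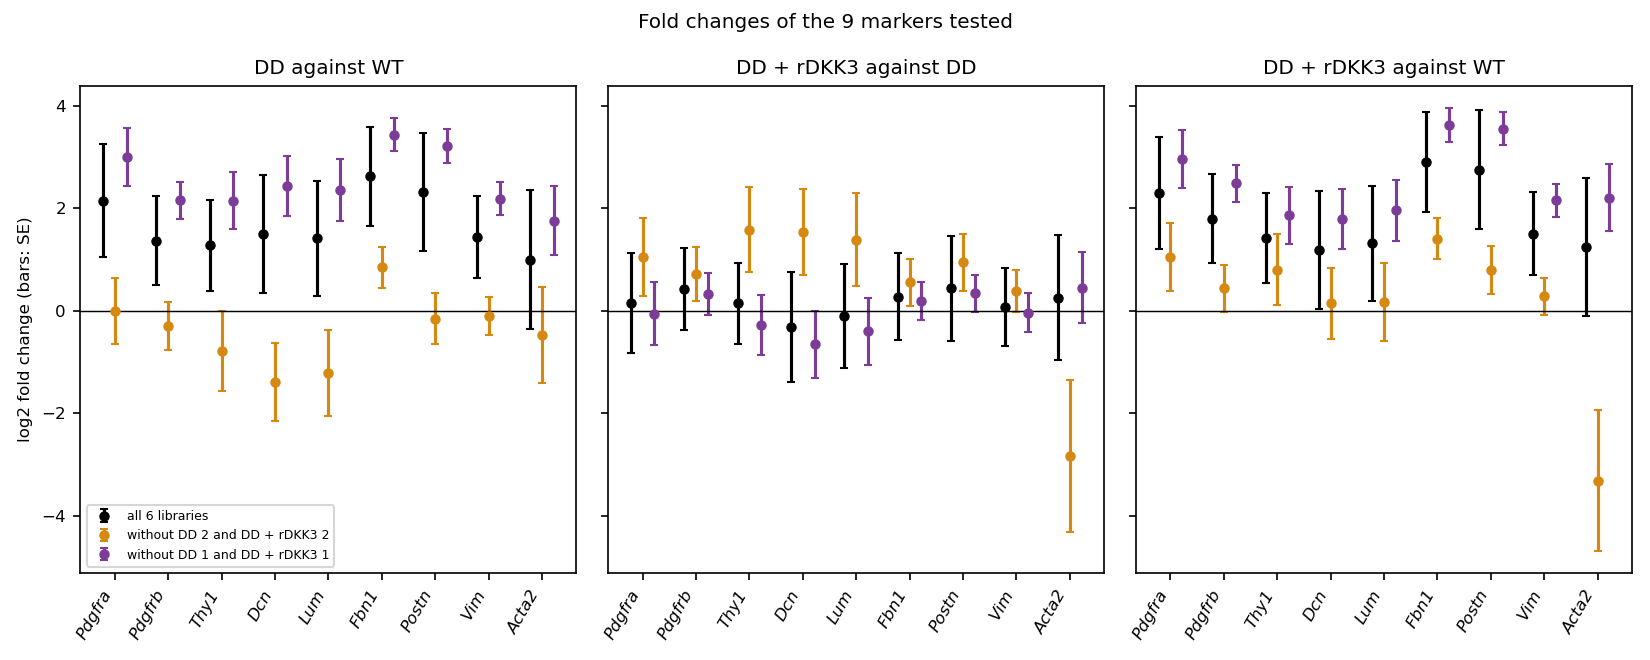
Log2 fold changes of the 9 tested markers in the 3 contrasts, with standard errors as bars, from all 6 libraries and after leaving out the knockout libraries of number 2 or of number 1. With all libraries the points of DD against WT lie between 1.0 and 2.64, and without DD 2 and DD + rDKK3 2 they lie between -1.39 and 0.86.

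Without both DD 2 and DD + rDKK3 2, the median log2 fold change of the markers was -0.29 in DD against WT, 0.95 in DD + rDKK3 against DD and 0.44 in DD + rDKK3 against WT, and 0 of 9 were called in each, where 0.102% of all genes were called in DD against WT, 0% in DD + rDKK3 against DD and 0.0746% in DD + rDKK3 against WT. Without both DD 1 and DD + rDKK3 1, 5 of 9 markers were called in each contrast against WT, Pdgfra, Pdgfrb, Fbn1, Vim and Postn, where 1.4% of all genes were called in DD against WT and 1.07% in DD + rDKK3 against WT, along with 33 and 29 of 122 companion genes from the lists described below. Their log2 fold changes in DD against WT were then 2.16 to 3.44, with edgeR adjusted p-values from 0.000111 for Fbn1 to 0.0147 for Pdgfra. In both of these fits each knockout group is a single library that is assumed to vary as the WT libraries do.

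The other stromal genes were read from lists that share no gene with the 10 markers. All 8 interstitial collagens and 21 of the 24 tested genes of the stromal matrix list were at least 2-fold higher in DD 2 than in DD 1, against the 6.91% of all genes given above, and the summed collagen level was 126.3 CPM in WT 1, 60.63 CPM in WT 2, 79.34 CPM in DD 1, 922.6 CPM in DD 2, 183.5 CPM in DD + rDKK3 1 and 1034 CPM in DD + rDKK3 2. Of the 21 matrix genes, Fmod, Ogn and Aspn passed the filter only through DD 2 and DD + rDKK3 2, the libraries in which they were high. Eln and Fbln1, also among the 21, depended on those libraries to pass as well. The type I collagen chain Col1a1 went from 15.9 CPM in DD 1 to 251.9 CPM in DD 2, Col1a2 from 17.6 to 218.7 CPM, and the type III chain Col3a1 from 9.17 to 140.2 CPM. Among the matrix genes, the collagen-binding glycoprotein Sparc was at 94.7 CPM in DD 1 and 434.7 CPM in DD 2, fibronectin Fn1 at 43.9 and 286.4 CPM, and the crosslinking enzyme Lox at 41.5 and 187.3 CPM. In DD against WT the median log2 fold change was 2.4 for the collagens and 1.7 for the matrix list. By edgeR 0 of the 8 collagens and 0 of the 24 matrix genes were called, where 0.0407% of all genes were. At an unadjusted p under 0.05 there were 2 and 3, against 8.26% of all genes.

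Mesenchymal transcription factors other than Foxf1 showed the same libraries at the top. Foxf1 was highest in WT 2 at 1.40 CPM, with 0.763 CPM in DD 2 and 0.645 CPM in DD + rDKK3 2. Of 8 tested, 6 were at least 2-fold higher in DD 2 than in DD 1 (6.91% of all genes), with the homeobox factor Prrx1 at 3.78 and 25.9 CPM, Snai1 at 2.03 and 15.5 CPM, and Zeb2 at 1.47 and 6.46 CPM. Snai2 and Twist2, which are among the 6, passed the filter only through DD 2 and DD + rDKK3 2, the libraries in which they were high. Twist1, also among the 6, depended on those libraries to pass as well. The summed level of the list was 11.11 CPM in DD 1 and 57.72 CPM in DD 2, and 17.04 CPM and 54.42 CPM in DD + rDKK3 1 and 2. Among the fibroblast surface and secreted genes, 8 of 12 tested were at least 2-fold higher in DD 2 than in DD 1 (6.91% of all genes), including podoplanin Pdpn at 10.6 and 31.4 CPM. Itga11, also among the 8, passed the filter only through DD 2 and DD + rDKK3 2. Has2 and Il6, among the 8 too, depended on those libraries to pass as well. The most abundant gene of that list, Ly6a, was highest in WT 1 at 1236 CPM and had 445.4 CPM in DD 1 and 807.6 CPM in DD 2, while the chemokine Cxcl12 stayed between 30.8 and 41.2 CPM in all 6 libraries. By edgeR 0 of the 20 tested genes of both lists were called in DD against WT (0.0407% of all genes), with 0 at an unadjusted p under 0.05 (8.26% of all genes).

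Contractile and pericyte genes followed the markers only in part. Tropomyosin Tpm1 lay between 251.9 and 318.7 CPM, caldesmon Cald1 between 68.5 and 114.4 CPM, and Tpm2 between 6.02 and 17.2 CPM, with 3 of 8 tested contractile genes at least 2-fold higher in DD 2 than in DD 1 (6.91% of all genes) and 5 of 8 in DD + rDKK3 2 than in DD + rDKK3 1 (5.14% of all genes). The median log2 difference of the list was 0.62 and 1.22 in that order. Myl9, counted among the 5, depended on DD 2 and DD + rDKK3 2 to pass the filter. The smooth muscle genes Actg2, Cnn1 and Lmod1 did not pass it. Of the pericyte and quiescent stellate list, 4 of 9 tested genes were at least 2-fold higher in DD 2 than in DD 1 and 2 of 9 in DD + rDKK3 2 than in DD + rDKK3 1, against the same shares of all genes. Nes and Mcam, its most abundant members, were not, with Nes at 194.6 CPM in DD 1 and 126.5 CPM in DD 2 and Mcam at 8.46 and 13.8 CPM. The pericyte marker Rgs5, next in abundance, was among the genes higher in DD 2, at 4.07 and 9.39 CPM. Lrat, the retinol acyltransferase by which quiescent stellate cells store retinoids, had 1 count in all 6 libraries together, Ngfr had 2, and Gfap was at 0.0702 to 0.294 CPM.

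The PDGF ligands, which as a family signal through the receptors among the markers, did not share the profile of the receptors. Pdgfa lay between 61.4 and 81.4 CPM, Pdgfb between 12.9 and 20.1 CPM, Pdgfc between 6.38 and 8.22 CPM and Pdgfd between 6.17 and 12.3 CPM. For 0 of 4 ligands was DD 2 at least 2-fold above DD 1, against 6.91% of all genes. By edgeR 0 of 4 were called in DD against WT (0.0407% of all genes). Pdgfd alone had an unadjusted p under 0.05 (8.26% of all genes), at a log2 fold change of -0.58 ± 0.23 (SE) and an adjusted p of 0.586.

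**Figure D4:**
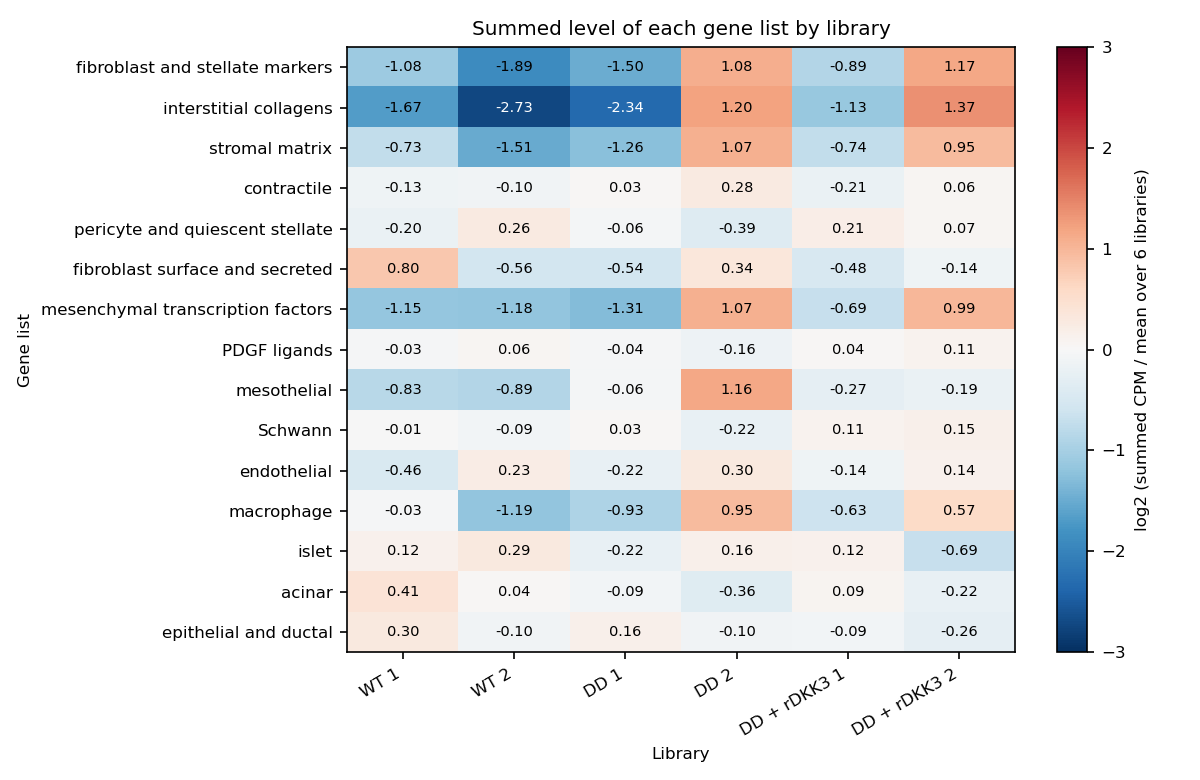
Summed CPM of each gene list in each library as the log2 ratio to the mean of that list over the 6 libraries, for the lists whose sum was at least 5 CPM in every library. The fibroblast and stellate markers read 1.08 in DD 2 and 1.17 in DD + rDKK3 2 and are below 0 elsewhere, and the endothelial list stays between -0.46 and 0.30.

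Markers of other cells were read beside these results. Macrophage genes were also high in DD 2 and DD + rDKK3 2, with a summed level of 259.4 and 199.7 CPM against 70.92 CPM in DD 1 and 87.22 CPM in DD + rDKK3 1, and 7 of 9 were at least 2-fold higher in DD 2 than in DD 1 (6.91% of all genes). Their summed level was 132.3 CPM in WT 1 and 58.87 CPM in WT 2. In WT 1, 6 of 9 were at least 2-fold above WT 2 (3.69% of all genes), where 3 of 9 stromal markers were. The complement gene C1qa was at 19.5 CPM in WT 1, near the 22.8 CPM of DD 2, against 1.61 CPM in WT 2. Lyz2 differed less, at 36.2 CPM in WT 1 and 20.3 CPM in WT 2. Lysozyme Lyz2 ran from 18.1 CPM in DD 1 to 132.8 CPM in DD 2, and Cd68 stayed between 29.5 and 42.2 CPM. Endothelial genes summed to 84.31 CPM at the lowest, in WT 1, and to 142.8 CPM at the highest, in DD 2, with Kdr at 14.2 to 29.5 CPM, Pecam1 at 16.3 to 32.8 CPM and Cdh5 at 11.7 to 26.0 CPM. The part of these cells in the marker levels was not tested.

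Several other cell types were represented by few counts, apart from the genes Msln and Mbp. The mesothelial list summed to 8.49 CPM at the lowest and 35.17 CPM in DD 2, nearly all of it Msln. This gene was at 7.75 CPM in WT 1, 14.2 CPM in DD 1 and 32.6 CPM in DD 2. Unlike the markers, it was level between DD + rDKK3 1 at 12.0 CPM and DD + rDKK3 2 at 12.2 CPM. The defining genes Muc16, Upk3b, Upk1b and Lrrn4 were at 0 in all libraries or failed the filter. Msln had a log2 fold change of 1.53 ± 0.36 (SE) in DD against WT, with an adjusted p of 0.532 by edgeR and 0.0241 by DESeq2. Wt1 had 0 to 1.88 CPM and Gpm6a 0.0537 to 0.317 CPM. All 5 lymphocyte genes failed the filter, with 2 of 5 at 0 in every library, Cd3e at up to 0.161 CPM and Cd79a at up to 0.196 CPM. Of the Schwann cell list, Mbp lay between 45.7 and 59.4 CPM, and S100b, at up to 0.772 CPM, failed the filter with the remaining 3 genes. Adipocyte genes summed to at most 1.4 CPM, with Cidec at up to 1.18 CPM, Plin1 at up to 0.645 CPM and Cfd at up to 0.421 CPM.

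The epithelial compartment moved far less. The 12 acinar genes summed to 74350 CPM in DD 2 and 81500 CPM in DD + rDKK3 2, the lowest of the 6 libraries, and to 126900 CPM in WT 1, the highest. Chymotrypsinogen Ctrb1 had 40300 CPM in DD 2 and 45640 CPM in DD + rDKK3 2 against 51900 to 66670 CPM elsewhere, Cpa1 had 9732 and 11800 CPM there, and the elastase Cela3b 7649 and 7192 CPM, the latter 2 values above the 6945 CPM of DD 1. The keratins Krt8 (1284 to 1933 CPM), Krt18 (1135 to 1844 CPM) and Krt19 (518.8 to 909.5 CPM) and the islet genes Ins2 (27.4 to 63.4 CPM), Gcg (17.3 to 51.7 CPM) and Chga (23.9 to 41.0 CPM) did not follow the markers. Over all companion lists, edgeR called 0 of 122 tested genes in each of the 3 contrasts, with 12, 2 and 25 at an unadjusted p under 0.05 for DD against WT, for treated against untreated knockout acini and for DD + rDKK3 against WT, where the shares of all genes were 8.26%, 1.98% and 15.3%. DESeq2 called 2 of them, Msln among them, both in DD against WT, and 0 of the 53 and 47 to which it gave an adjusted p in the other 2 contrasts, and limma-voom called 0 of 122 in each.

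Over the 6 libraries the tested markers were alike in profile. Pearson's r of log2 CPM between each marker and the mean of the other 8 was 0.991 for Vim, 0.98 for Postn, 0.946 for Fbn1, 0.939 for Lum, 0.934 for Thy1, 0.926 for Pdgfrb, 0.921 for Pdgfra, 0.9 for Dcn and 0.648 for Acta2. The points are 6 libraries of which DD 2 and DD + rDKK3 2 stand apart, so these values describe that contrast and little else. Outside every list, the 10 genes with the highest r to the mean of the markers, at 0.9877 to 0.9970, were Loxl3, Adamts2, Col15a1, Fkbp10, Adcy7, Fstl1, Axl, Plekho2, Scarf2 and Dpep1. Loxl3, a lysyl oxidase-like enzyme, was at 5.11 CPM in DD 1 and 12.1 CPM in DD 2, the procollagen protease Adamts2 at 2.46 and 12.0 CPM, the collagen chaperone Fkbp10 at 5.72 and 17.4 CPM, and Col15a1 at 4.3 and 41.9 CPM. The secreted glycoprotein Fstl1 was at 14.4 and 87.9 CPM and the receptor tyrosine kinase Axl at 10.7 and 38.8 CPM. Adcy7, Plekho2, Scarf2 and Dpep1 ranged from 0.561 to 10.6 CPM over the 6 libraries.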

How the data were processed

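Gene expression was measured by bulk RNA sequencing in 6 acinar cultures, 2 per group. Per their methods and the submitters' processing notes, the authors prepared strand-specific paired-end libraries, aligned reads with STAR 2.7.9a to GRCm39 with the basic GENCODE M32 annotation, counted alignments over exons in union mode and summed them per gene, so the deposited values are raw counts of read pairs per gene and library, with replicates not pooled. They tested them with DESeq2 1.38.0. Reads shared by near-identical copies are placed or dropped by the aligner.

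The deposited table has 57045 rows. The 92 spike-in rows hold 0 counts and were left out, leaving 56953 genes. Genes were kept by filterByExpr (minimum count 10, minimum total 15), which left 14738. The counts were scaled by TMM and fitted with the quasi-likelihood model of edgeR 4.0.16 in R 4.3.3 over all 6 libraries, without a replicate block, with 3 residual and 4.634 prior degrees of freedom. P-values were two-sided and adjusted by Benjamini-Hochberg over the genes tested, with calls at 0.05. CPM used TMM-scaled totals, and log2 CPM a prior count of 2. Levels per kilobase used exon lengths of GENCODE M39, and promoter windows of 250 bases came from the GRCm39 genome. Poisson and conditional binomial intervals were exact at 95%, from scipy 1.17.1. DESeq2 1.42.0, limma 3.58.1 (voom), other scalings, no filter, a replicate block and leaving out libraries were tried as alternatives. Fits were tested on simulated data. Libraries of a group differed by more than sampling noise (chi-square per degree of freedom 21.49 to 61.06), so none was counted as a duplicate.

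The markers, the companion lists and the rule for named genes were chosen with earlier results of these data known. The rule names the 10 markers and Dkk3, the 3 genes of highest mean CPM in each companion list (all 4 PDGF ligands), and the 10 genes outside the lists, of average log2 CPM of at least 1, with the highest r to the mean of the tested markers. Msln as a DESeq2 call, Foxf1, the genes named for how they passed the filter, and the listed genes at or near 0, were named after their values were seen. Some genes that the rule names are not reported here. No protein sequence was used here.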

Additional observations from a re-analysis of the deposited data

How the results depend on the processing

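In each of the 3 contrasts, 0 of 9 markers were called under RLE, upper quartile and library size scaling, with limma-voom, and in fits of only the groups compared. DESeq2 called 0 of 9 for DD against WT, but gave an adjusted p to only 2 of 9, Fbn1 and Vim, in each contrast with DD + rDKK3, and called 0 of those 2. Without the low-count filter, 7, 0 and 7 of 9 were called for knockout against WT, treated against untreated knockout and treated knockout against WT, in that order, and 528, 73 and 788 of all 26506 genes in place of 6, 0 and 7 of 14738. In that fit the prior degrees of freedom were infinite, so the spread of each gene between its own replicates carried no weight. DESeq2 called 77, 5 and 61 of all genes. Library size scaling shifted the median over all genes, in log2, to 0.22 for DD and 0.18 for DD + rDKK3 when set against WT, and the markers' medians to 1.66 and 1.72. Without both DD 1 and DD + rDKK3 1, 5, 0 and 5 of 9 were called, with 206, 0 and 157 of all genes.

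The replicate numbers of WT and of the knockout groups share only a number, and the labels name no shared animal. Deviations of same-numbered libraries correlated at 0.65 between DD and DD + rDKK3, -0.387 between WT and DD and -0.247 between WT and DD + rDKK3. With the number as a replicate block over all 6 libraries, 0 of 9 markers were called in each contrast, 7, 0 and 5 of all genes were, and in DD + rDKK3 against DD Lum turned to 0.11 and Acta2 to -0.20. With the replicate block within the knockout libraries, 0 of 9 markers and 20, 0 and 15 of all genes were called, and 11 log2 fold changes turned: in DD against WT Pdgfrb (-0.19), Dcn (-0.55), Lum (-0.50), Thy1 (-0.075) and Acta2 (-1.20), in DD + rDKK3 against DD Dcn (0.23), Lum (0.25) and Acta2 (-0.14), and in DD + rDKK3 against WT Dcn (-0.32), Lum (-0.25) and Acta2 (-1.34).

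By limma-voom, Dcn (0.57), Lum (0.64) and Acta2 (-0.94) turned in DD + rDKK3 against DD, and Acta2 (-0.31) in DD + rDKK3 against WT. Without both DD 2 and DD + rDKK3 2, turned values in DD against WT were Pdgfrb -0.29, Dcn -1.39, Lum -1.22, Thy1 -0.78, Acta2 -0.47, Vim -0.10 and Postn -0.15, in DD + rDKK3 against DD Dcn 1.54, Lum 1.39 and Acta2 -2.83, and in DD + rDKK3 against WT Acta2 -3.31. Without both DD 1 and DD + rDKK3 1, Pdgfra (-0.052), Thy1 (-0.28) and Vim (-0.033) turned in DD + rDKK3 against DD. The cause was not tested, and none of these values was past the threshold.

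Leaving out single libraries gave 0 of 9 calls throughout and these log2 ranges. In DD against WT they were -0.29 to 2.15 for Pdgfrb, -1.37 to 3.06 for Dcn, -1.21 to 2.55 for Lum, -0.78 to 2.15 for Thy1, -0.47 to 1.99 for Acta2, -0.092 to 2.20 for Vim and -0.15 to 3.22 for Postn. In DD + rDKK3 against DD they were -1.10 to 2.28 for Pdgfra, -0.96 to 2.09 for Pdgfrb, -1.36 to 2.56 for Dcn, -1.27 to 2.53 for Lum, -1.24 to 2.05 for Fbn1, -0.72 to 2.21 for Thy1, -4.33 to 1.72 for Acta2, -1.17 to 1.60 for Vim and -1.55 to 2.91 for Postn. In DD + rDKK3 against WT Acta2 ranged from -3.30 to 2.24. A group left with 1 library was assumed to vary like the others. With 2 libraries a group, and Fap and Acta2 at 1 to 52 counts, depth and replicate number limit these values.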
